A study of Homo sapiens with 17 samples.

Results

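Gelsolin (GSN) and 9 other genes whose proteins cut, cap, bundle or sequester actin were followed in L363, an established human multiple myeloma cell line. The set holds the gelsolin family members GSN, SCIN, CAPG, VIL1, SVIL and AVIL, the cofilin family members CFL1, CFL2 and DSTN, and the monomer-binding thymosin TMSB10. These are 10 of the 19775 genes measured, and all 10 were measured. GSN was chosen by its measured level, which was seen to be higher with MS275 than in untreated cells of this same experiment, so that difference is given below as a description and without a test. The other 9 genes were set beside it as further actin-severing and actin-binding genes.

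Of the array probe sets annotated to a gene alone, the one that read highest on average across the 17 arrays stood for that gene. The 10 genes have 34 such probe sets, and the 24 that were not chosen served as a check. All values are log2 signals, so a difference of 1 is a doubling.

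Cells were cultured for 48 hours in 6 groups. The control received no drug. The other groups received 0.5 uM MS275 (an inhibitor of class I histone deacetylases, also called entinostat), 1 nM rapamycin (an inhibitor of the kinase mTOR), 10 nM rapamycin, 0.5 uM MS275 with 1 nM rapamycin (the 1 nM combination) or 0.5 uM MS275 with 10 nM rapamycin (the 10 nM combination). Each group has 3 arrays except the 10 nM combination, which has 2 because the submitters removed 1 array. All arrays come from 1 cell line, and the labels do not say whether replicates were separate cultures, so p-values measure only the spread between these samples, which may be technical.

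Actin filaments grow by adding monomers at the barbed end and shrink by losing them at the pointed end. Gelsolin binds calcium, severs filaments and caps their barbed ends, and not all of its relatives do each of these. Cofilin and destrin sever older filaments and speed the loss of monomers, and beta-thymosins hold monomers apart from filaments. Gelsolin is a classic gene induced by histone deacetylase inhibitors and is low in many tumours. CAPG, the macrophage capping protein, caps barbed ends without severing.

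The cell label was checked first. The 8 plasma cell and myeloma genes had mean levels between 8.09 and 12.6, and 16 markers of other cell types had means between 2.72 and 6.92. Array medians lay between 5.09 and 5.36. The arrays of control replicate 1 and 1 nM combination replicate 1 stood apart, as their values spread less: the SD was 2.14 and 2.15 there, and it ran from 2.27 to 2.37 in the remaining 15. No detection calls were used here, so it cannot be said which low probe sets are above background. Precision is limited by how many arrays each group has. In such bulk RNA, fewer cells with a transcript and less of it per cell cannot be told apart.

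Promoter sequences are shown for GSN, for TMSB10 and CFL1 as members with other patterns, and for VCL, a focal adhesion gene that appears below beside GSN. Each is the 250 bases before an annotated start in RefSeq on GRCh38.p14, written 5′ to 3′ on the gene's strand. Capitals mark the GC box GGGCGG, searched on both strands (CCGCCC when reversed), with overlapping matches counted. Of 35116 such windows in the RefSeq table, 42.6% hold at least 1 match.
GSN, first of its windows (chr9:121201233-121201482, + strand): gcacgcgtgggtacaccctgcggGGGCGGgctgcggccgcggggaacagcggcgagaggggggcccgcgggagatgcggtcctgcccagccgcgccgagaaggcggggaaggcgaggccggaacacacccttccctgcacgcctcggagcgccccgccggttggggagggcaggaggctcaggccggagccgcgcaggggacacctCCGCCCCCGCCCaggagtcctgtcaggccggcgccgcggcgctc
GSN, second of its windows (chr9:121267912-121268161, + strand): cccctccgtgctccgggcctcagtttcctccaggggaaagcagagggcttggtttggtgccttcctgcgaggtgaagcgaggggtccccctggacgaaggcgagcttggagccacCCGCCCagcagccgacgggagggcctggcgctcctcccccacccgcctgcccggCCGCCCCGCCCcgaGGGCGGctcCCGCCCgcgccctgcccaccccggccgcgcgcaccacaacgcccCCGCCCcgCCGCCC
TMSB10 (chr2:84905406-84905655, + strand): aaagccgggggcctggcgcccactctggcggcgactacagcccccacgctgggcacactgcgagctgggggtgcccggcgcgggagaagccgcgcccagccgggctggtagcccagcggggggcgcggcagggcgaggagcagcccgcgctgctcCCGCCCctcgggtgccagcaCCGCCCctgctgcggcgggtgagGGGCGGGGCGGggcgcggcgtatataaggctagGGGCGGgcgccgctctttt
CFL1 (chr11:65858181-65858430, - strand): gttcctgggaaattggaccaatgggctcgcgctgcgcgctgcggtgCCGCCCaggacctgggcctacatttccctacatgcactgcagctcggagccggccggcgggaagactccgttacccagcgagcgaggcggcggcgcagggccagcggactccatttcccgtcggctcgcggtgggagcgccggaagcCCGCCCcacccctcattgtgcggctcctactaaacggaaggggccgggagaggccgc
VCL (chr10:73997866-73998115, + strand): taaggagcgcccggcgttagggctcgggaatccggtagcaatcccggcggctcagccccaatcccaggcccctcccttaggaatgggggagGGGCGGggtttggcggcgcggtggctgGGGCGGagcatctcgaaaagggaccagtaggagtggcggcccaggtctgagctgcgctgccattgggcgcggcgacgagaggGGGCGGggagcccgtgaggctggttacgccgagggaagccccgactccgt

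GSN has 6 annotated windows, and the second holds 7 GC boxes, as many as in 1.12% of all windows. The first holds 3, a count reached or passed in 13.9% of windows. These 2 are printed as those with the most GC boxes. The other 4 GSN windows hold 0, 0, 1 and 1, and the third of the 6 holds 1 TATAAA. TMSB10 holds 5 (4.15%), CFL1 holds 2 (24.3%) and VCL holds 3 (13.9%). The windows of CFL1 and VCL hold no TATAAA, and 10.7% of all windows do. Of the 10 members, 9 have a window. Which start is used in these cells was not measured, and a match is a description of the letters only.

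GSN levels fell into a high set and a low set of arrays according to MS275. The MS275 arrays read 7.84, 7.29 and 7.73, the 1 nM combination 7.02, 6.73 and 7.51, and the 10 nM combination 6.57 and 7.09. The control arrays read 5.85, 4.95 and 5.73, 1 nM rapamycin 5.11, 5.31 and 4.94, and 10 nM rapamycin 5.06, 5.11 and 5.33. Each of the 8 arrays with MS275 was above each of the 9 without it. The MS275-alone and control arrays are those by which GSN was chosen, so their separation follows from the choice and this split is a description. In order, the group means were 7.62 ± 0.29 (SD, n = 3) for MS275, 7.09 ± 0.40 (n = 3) for the 1 nM combination, 6.83 ± 0.37 (n = 2) for the 10 nM combination, 5.51 ± 0.49 (n = 3) for control, 5.17 ± 0.14 (n = 3) for 10 nM rapamycin and 5.12 ± 0.18 (n = 3) for 1 nM rapamycin. Only the step from the 10 nM combination to the control separates neighbours in that order whose arrays do not overlap.

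**Figure D1:**
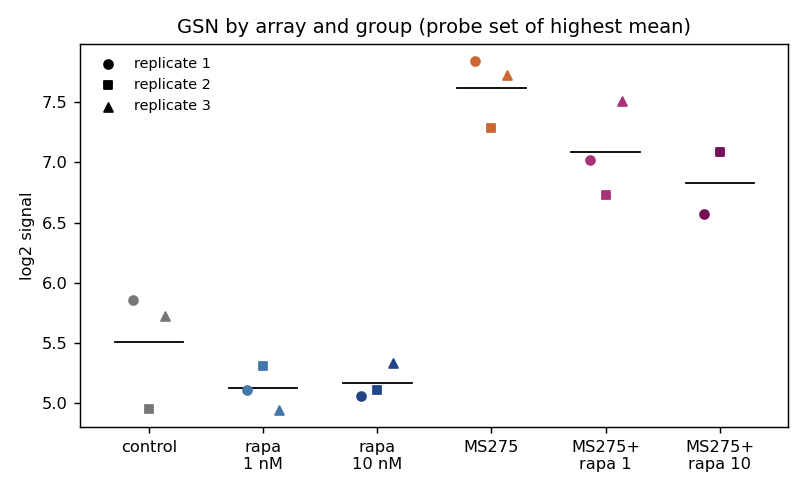
GSN log2 signal (vertical axis) on each of the 17 arrays in the 6 groups, with group means as lines. The 8 arrays with MS275 lie between 6.57 and 7.84 and the 9 arrays without it between 4.94 and 5.85. GSN was chosen by the MS275-alone and control arrays.

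MS275 was tested in the arrays that received rapamycin, which are not part of the difference from untreated cells by which GSN was chosen. These arrays had already been measured when GSN was chosen, so it cannot be shown that they played no part, and the p-values for GSN may be too small. GSN rose when MS275 was added to 1 nM rapamycin, by 1.97 ± 0.26 log2 (SE, 95% confidence interval 1.40 to 2.53), a fold of 3.91 (limma, adjusted p = 0.00221). It rose by 1.66 ± 0.29 (1.03 to 2.29), a fold of 3.17, when MS275 was added to 10 nM rapamycin (limma, adjusted p = 0.0237). Averaged over both doses the rise was 1.81 ± 0.20 (1.39 to 2.24), and an exact two-sided permutation test within doses gave p = 0.005, the smallest that its 200 permutations allow (limma, adjusted p = 0.000146). Among all genes, 0.936% rose with MS275 at 1 nM rapamycin, 0.298% at 10 nM and 2.41% in the average.

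The call at 10 nM rested on every array of its 2 groups. Leaving out 10 nM rapamycin replicate 1, 2 or 3 gave 1.61, 1.63 and 1.74 (limma, adjusted p = 0.0984, 0.0892 and 0.0615). Leaving out 10 nM combination replicate 1 or 2 gave 1.92 and 1.40 (adjusted p = 0.0897 and 0.316), with the array that was left assumed to vary like the other groups. A fit of those 2 groups alone gave 1.66 with adjusted p = 0.125. At 1 nM and in the average the call held without any 1 array, and without the 2 narrow arrays the averaged rise was 1.83 (adjusted p = 0.000355).

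The probe sets of GSN disagreed. The rise was on 200696_s_at, the probe set used here, and none of the other 6 passed the threshold. Their averaged changes with MS275 ran from -0.13 to 0.22, with exact permutation p between 0.125 and 0.92, and their arrays all read between 2.11 and 5.83. Averaging all 7 probe sets gave 0.31 for the averaged change (limma, adjusted p = 0.26). Where these probe sets lie on the gene and whether they are above background was not analysed here. Of the 24 other probe sets of all members, 0 were called in the averaged comparison in limma, against 2.44% of all probe sets.

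**Figure D2:**
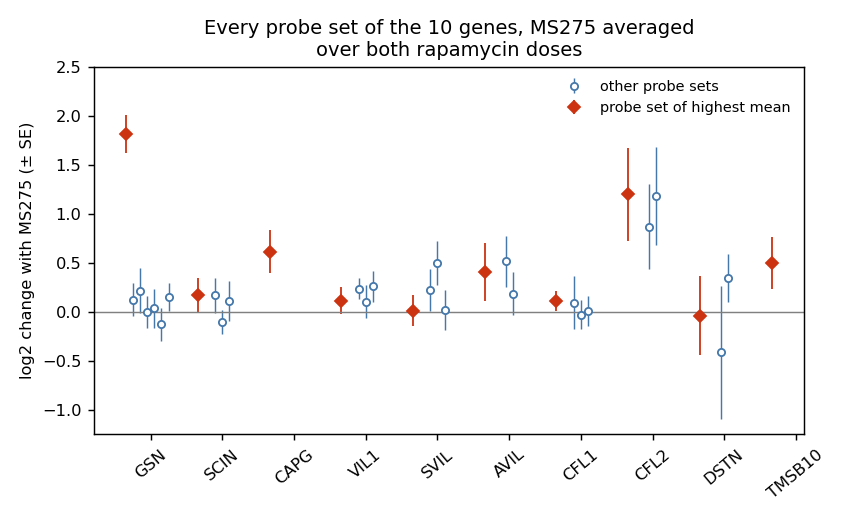
Log2 change with MS275 averaged over both rapamycin doses for each probe set of the 10 genes, with SE bars and the probe set that stands for each gene marked. For GSN, 200696_s_at lies at 1.81 and the other 6 between -0.13 and 0.22.

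No difference between the rapamycin doses in the effect of MS275 on GSN was detected. The effect at 10 nM less that at 1 nM was -0.30 ± 0.39 log2 (95% interval -1.15 to 0.54; limma, adjusted p = 0.998), and 0 of the 19775 genes passed for that difference, with 123 at an unadjusted p under 0.05. Against control, in the contrast that chose it, GSN was 2.11 ± 0.26 higher with MS275 alone. GSN was -0.53 ± 0.26 when 1 nM rapamycin was added to MS275 and -0.79 ± 0.29 when 10 nM was added, and in the latter all arrays of the combination lay below all MS275 arrays, as for 11.8% of genes. These values use the arrays that chose GSN and were not tested. The 10 nM dose against the 1 nM dose gave 0.05 (95% interval -0.52 to 0.61) without MS275 and -0.26 (-0.89 to 0.37) with it. No member passed in either dose comparison in limma and none had an unadjusted p under 0.05, while 0% of all genes passed in each and 0.121% and 0.769% had an unadjusted p under 0.05.

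CAPG had the next most similar arrays among the members. Its MS275 arrays read 6.74, 5.68 and 6.77, the 1 nM combination 5.86, 5.31 and 6.05 and the 10 nM combination 5.41 and 5.86. The control read 5.74, 5.04 and 5.23, 1 nM rapamycin 5.12, 4.92 and 5.26, and 10 nM rapamycin 4.95, 5.03 and 5.19. Every combination array was above every array with rapamycin alone, as was so for GSN and for 3.84% of all genes. The averaged difference was 0.61 ± 0.22 (0.14 to 1.08), which missed the threshold (limma, adjusted p = 0.164). Across the 17 arrays CAPG correlated with GSN at r = 0.88, a description over arrays that share 1 cell line and 1 normalization.

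The other gelsolin relatives gave small estimates. All arrays of SCIN, VIL1 and SVIL lay within the span of means of the 16 markers of other cell types, 2.72 to 6.92. For these 3 genes, a lack of response cannot be told apart from a transcript too low to measure. SCIN (scinderin, also called adseverin) had an averaged difference of 0.17 ± 0.17 (limma, adjusted p = 0.749), with arrays between 4.57 and 5.69. The epithelial bundler VIL1 (villin) had 0.11 ± 0.14, with arrays from 4.74 to 5.42. SVIL (supervillin), which links actin to the membrane, had 0.01 ± 0.16 (-0.33 to 0.35), and AVIL (advillin) had 0.40 ± 0.29. Control replicate 1, a narrow array, was the highest of the 17 for both SCIN (5.69) and SVIL (5.49). Without both narrow arrays the averaged differences were 0.15 for SCIN, 0.028 for VIL1, -0.058 for SVIL and 0.25 for AVIL. The probe sets used for SCIN and AVIL carry the _x_at suffix, which the maker gives to probe sets that may also bind other transcripts. The SVIL probe sets disagreed in MS275 against control. The one used here gave -0.14 and the others ran from -0.22 to 0.89, with all of their arrays at 4.89 or below. The highest, 202565_s_at, did not overlap, and 5.7% of all genes were higher without overlap in that contrast.

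**Figure D3:**
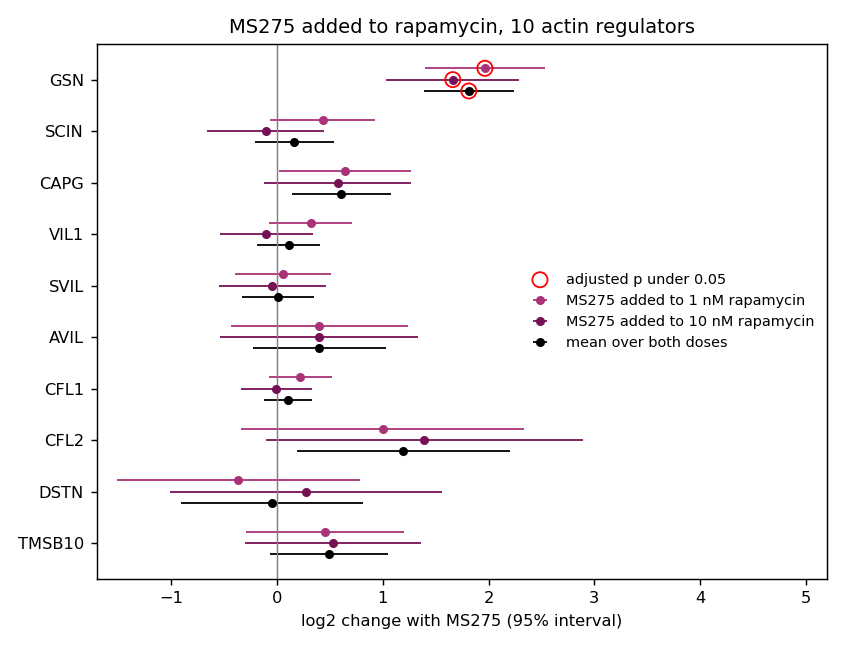
Log2 change with MS275 for each of the 10 genes, at 1 nM rapamycin, at 10 nM rapamycin and averaged, with 95% confidence intervals. GSN, at 1.97, 1.66 and 1.81, is the gene called in all 3, and no other member passed the threshold in any of them.

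In the cofilin family, CFL2, the cofilin of muscle that other cells also make, had the widest spread. Its control arrays read 5.49, 7.02 and 7.74 and its MS275 arrays 7.59, 7.40 and 8.60. With rapamycin alone it read 7.16, 6.95 and 8.29 at 1 nM and 7.04, 7.02 and 8.24 at 10 nM, and in the combinations 7.79, 8.30 and 9.31 at 1 nM and 7.99 and 9.66 at 10 nM. Replicate 3 was the highest array in each group of 3, and the arrays with MS275 overlapped those without it at every rapamycin dose. The averaged difference of 1.20 ± 0.47 (0.19 to 2.20) missed the threshold (limma, adjusted p = 0.216). With the replicate number as a block it was 1.41 and passed (limma, adjusted p = 0.00431). Each combination array was above the array of the same number without MS275, by 0.63 to 1.35 at 1 nM and by 0.95 to 2.64 at 10 nM. At 10 nM that matching is in doubt, as same-numbered arrays of those groups did not deviate together over all genes (correlation -0.63 and 0.10). The block and the same-number differences there carry this limit. The other CFL2 probe sets gave 0.87 and 1.18. Without control replicate 1, the narrow array, the MS275 difference from control moved from 1.11 to 0.48.

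CFL1, the main cofilin of non-muscle cells, kept within 13.1 and 13.7 on all 17 arrays. MS275 averaged over both doses gave 0.11 ± 0.10 (95% interval -0.12 to 0.33; limma, adjusted p = 0.73). Its arrays with rapamycin alone all lay below the control arrays, by 0.31 ± 0.14 at 1 nM, where 8.03% of genes were lower without overlap, and by 0.32 ± 0.14 at 10 nM, where 4.93% were. Neither passed the threshold (limma, adjusted p = 0.600 and 0.666).

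DSTN (destrin) differed between its probe sets. The one used gave 0.66 ± 0.54 for MS275 against control and -0.04 ± 0.40 (-0.90 to 0.82) for MS275 averaged over both doses. Its second probe set, 201021_s_at, gave 1.76 and -0.42 for the same differences, and its last, 230933_at, gave 0.57 and 0.34. DSTN read 9.01 on 1 nM combination replicate 1, a narrow array, against 10.49 and 11.18 on the others of that group. Without that array the averaged difference was 0.26, and the difference at 1 nM turned from -0.36 to 0.24. Leaving out any 1 array moved the averaged value between -0.36 and 0.28, the ends being without 10 nM combination replicate 2 and replicate 1. The difference from control was 0.28 without control replicate 1, the other narrow array, and 1.04 without control replicate 3.

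TMSB10, thymosin beta 10, stood between the control and MS275 after rapamycin. The control read 12.15, 11.71 and 11.20 and MS275 read 13.41, 13.04 and 13.44. Rapamycin alone read 12.57, 12.10 and 12.83 at 1 nM and 12.37, 11.89 and 13.01 at 10 nM, and the combinations read 13.22, 12.29 and 13.36 at 1 nM and 12.63 and 13.28 at 10 nM. The MS275 and control arrays did not overlap, a difference of 1.61 ± 0.35, and 5.7% of all genes were higher without overlap there. That contrast was used to choose GSN and was not tested. MS275 on top of rapamycin gave 0.46 ± 0.35 at 1 nM and 0.53 ± 0.39 at 10 nM (limma, adjusted p = 0.557 for the 1 nM dose), and the average of 0.50 ± 0.26 (-0.06 to 1.06) missed the threshold (adjusted p = 0.44). The combination's change less the sum of both single-drug changes was -1.15 ± 0.49 at 1 nM and -1.08 ± 0.52 at 10 nM, also not tested. Rapamycin against control gave 0.82 ± 0.35 at 1 nM (adjusted p = 0.577) and 0.74 ± 0.35 at 10 nM (adjusted p = 0.729).

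**Figure D4:**
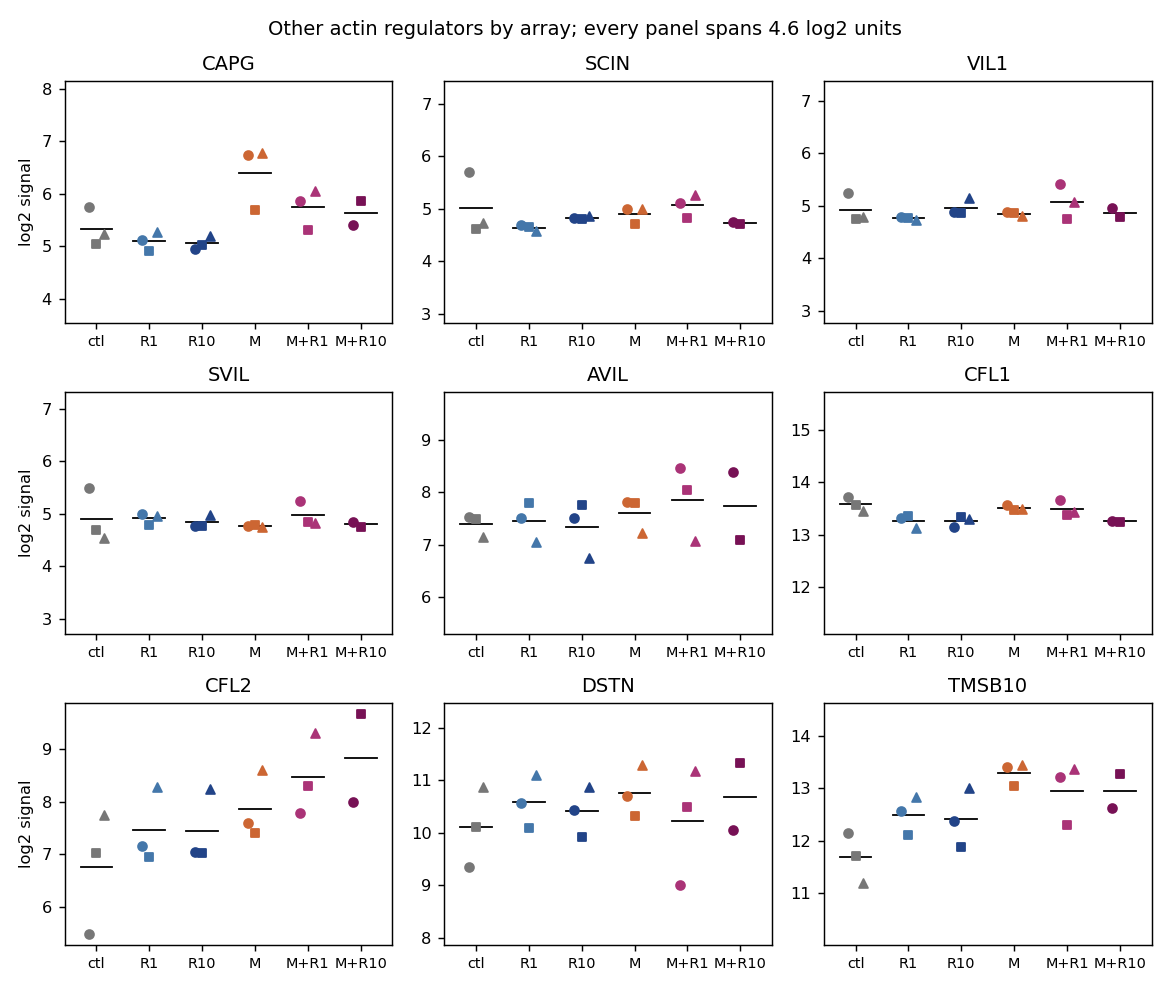
Log2 signal of the members other than GSN on the 17 arrays by group, with each gene on an axis of its own and group means. TMSB10 reads 11.20 to 12.15 in control and 13.04 to 13.44 with MS275, and CFL1 stays within 13.1 and 13.7.

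Of the 10 members, 1 (GSN) rose in each of the 3 comparisons of MS275 on top of rapamycin and 0 fell. Of all genes, 0.936% rose and 0.293% fell at 1 nM, 0.298% and 0.137% at 10 nM, and 2.41% and 1.57% in the average. At 1 nM the arrays with MS275 lay above those without it for 4 members (GSN, SCIN, CAPG and CFL1), against 14.9% of all genes. At 10 nM they did so for 2 (GSN and CAPG), against 9.8%, and lay below for 1 (SCIN), against 11.1%. In the average the members' median change was 0.28, against 0.055 over all 19775 genes. These counts and this median include GSN, which was chosen for being high with MS275. With GSN left out, the middle value of the other members was that of SCIN, 0.17. Rapamycin was tested for the 9 members other than GSN. None of the 9 passed in limma at 1 nM against control (2 at an unadjusted p under 0.05), at 10 nM against control (1), or when 1 nM or 10 nM was added to MS275 (1 each). The shares of all genes called were 0.101%, 0.435%, 0.106% and 0.253%, and those with an unadjusted p under 0.05 were 8.05%, 6.96%, 4.44% and 4.5%. With array quality weights, which gave control replicate 1 a weight of 0.11 and 1 nM rapamycin replicate 1 a weight of 11.3, TMSB10 rose at both rapamycin doses (1.25, adjusted p = 0.00322, and 1.02, adjusted p = 0.0262) and SVIL at 1 nM (0.38, adjusted p = 0.0228). That weighted fit called 14.2% of all genes at 1 nM and 9.87% at 10 nM. Without the 2 narrow arrays, and with no weights, TMSB10 was 1.05 and 0.97 against control and did not pass (limma, adjusted p = 0.433 and 0.42).

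The wider actin machinery was read from lists of other genes, of which 71 of 82 were measured. MS275 averaged over both rapamycin doses raised 4 of the 71 and lowered 0, against 2.41% and 1.57% of all genes, and the median of the 71 was 0.06. The 4 were VCL (vinculin, which joins actin to adhesion sites) and the formins FMNL2, DAAM1 and FMNL1, which build unbranched filaments. At each dose taken alone, VCL was the 1 gene of these 71 that rose, against 0.936% of all genes at 1 nM and 0.298% at 10 nM.

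VCL rose by 2.14 ± 0.25 log2 in the average, a fold of 4.39 (limma, adjusted p = 0.000237), from 8.33 ± 0.20 (SD, n = 3) to 10.5 ± 0.41 (n = 3) at 1 nM and from 8.30 ± 0.45 (n = 3) to 10.4 ± 0.0062 (n = 2) at 10 nM. The arrays of the combinations, 10.0 and above, all lay above those with rapamycin alone, 8.76 and below, as for 3.84% of all genes. FMNL2 rose by 1.15 ± 0.21 (adjusted p = 0.00537). Both calls held with any 1 array left out and without the narrow arrays.

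DAAM1 rose by 1.02 ± 0.24 (limma, adjusted p = 0.0288). Its call was lost without 1 nM rapamycin replicate 1 or 2 (1.03 and 0.96), 1 nM combination replicate 2 or 3 (0.98 and 0.90), 10 nM rapamycin replicate 2 or 3 (0.98 and 0.99) or 10 nM combination replicate 2 (0.76, adjusted p = 0.167). FMNL1 rose by 0.87 ± 0.21 (adjusted p = 0.0314), and without rapamycin it read 9.10 in control and 8.69 with MS275. Its call was lost without 1 nM rapamycin replicate 1 or 3 (0.87 and 0.77), 1 nM combination replicate 1 or 2 (0.81 and 0.86), 10 nM rapamycin replicate 1 or 3 (0.78 and 0.86) or 10 nM combination replicate 1 (0.71, adjusted p = 0.173). Between them, 3 of the 12 measured nucleation promoters and formins and 1 of the 6 membrane linkers rose, against 2.41% of all genes. Of those 3, only FMNL2 kept its call with any 1 array left out.

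No listed gene fell past the threshold with MS275. CORO1B, a coronin that binds filaments and the Arp2/3 complex, came nearest, at -0.65 ± 0.18 (limma, adjusted p = 0.059). Its combination arrays lay below those with rapamycin alone, as for 2.97% of all genes. Without the narrow arrays it was -0.71 (adjusted p = 0.0357). None of the 8 Arp2/3 complex genes, 7 capping genes, 8 crosslinkers and bundlers, 5 actins and 3 tropomyosins passed, with list medians of -0.21, -0.22, 0.05, 0.12 and 0.20.

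**Figure D5:**
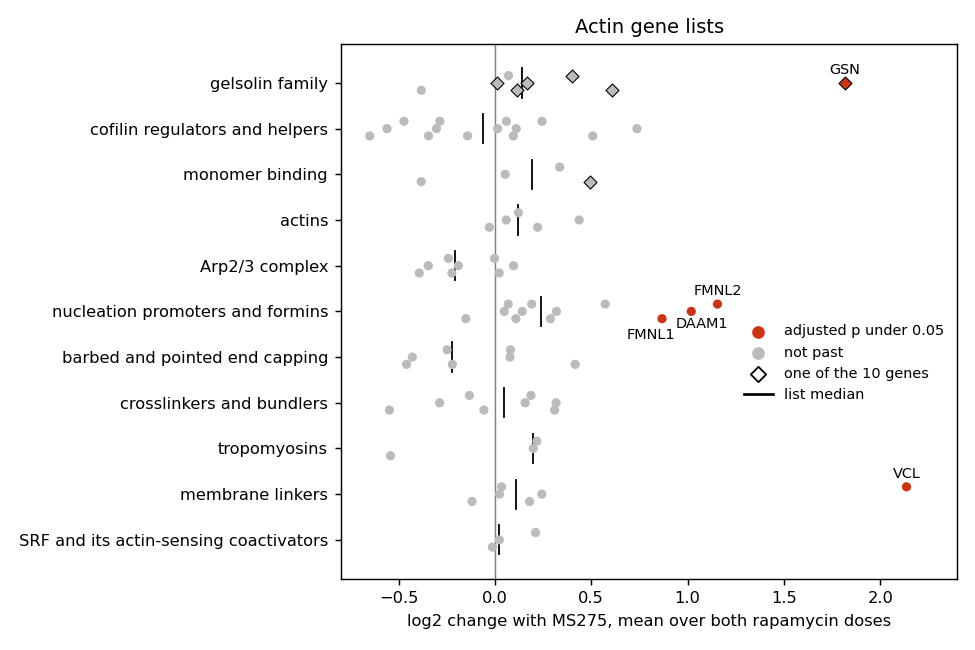
Log2 change with MS275 averaged over both rapamycin doses for the measured genes of each actin list, with called genes marked. VCL at 2.14 and GSN at 1.81 lie above the other genes of the lists, and the Arp2/3 and capping lists have medians of -0.21 and -0.22.

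Of the same 71 genes, 10 nM rapamycin against control lowered 2, against 0.369% of all genes. They were CORO1A, the coronin of blood cells, from 8.22 to 6.86 (-1.35 ± 0.27; limma, adjusted p = 0.0495), and DIAPH3, a formin, from 9.22 to 7.77 (-1.46 ± 0.28; adjusted p = 0.0412). Both were named after their values were seen. With 1 array left out in turn, CORO1A (-1.52 to -1.18, largest adjusted p = 0.324) kept its call only without 1 nM combination replicate 2, and DIAPH3 (-1.79 to -1.24, largest adjusted p = 0.259) only without control replicate 1, 1 nM combination replicate 1 or 10 nM rapamycin replicate 2. A fit of the 2 groups alone gave adjusted p = 0.465 for CORO1A and 0.596 for DIAPH3 (limma).

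Among 3016 other genes whose group means spanned at least 1 log2 unit, those whose arrays followed GSN most closely over the 17 arrays were ZCCHC24 and DNAAF3 (both r = 0.98), WNT11 (0.98), SLC37A1 (0.97) and KIAA0513 (0.97). CBFA2T3, a transcriptional corepressor, ran most opposite (-0.95), followed by BDH1 (-0.92), an enzyme of ketone body metabolism, and CRACR2A (-0.92). The median correlation of the 3016 with GSN was -0.056. ZCCHC24 read 5.40 in control, 6.81 with MS275, 5.04 with 1 nM rapamycin and 6.60 in the 1 nM combination. Among the members, r with GSN was 0.69 for TMSB10, 0.49 for CFL2, 0.39 for CFL1 and 0.36 for SCIN, and 0.21 or less for the others apart from CAPG.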

How the data were processed

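Per the labels, total RNA was extracted with TRIzol and labelled as amplified antisense RNA. The authors deposited log2 signals per probe set, made with affy and RMA per the submitters' processing notes. No source used here gives their versions or settings. The table holds 54613 probe sets, of which 41091 carry 1 gene symbol, 1801 several and 11721 none, and 41037 matched RefSeq (GRCh38.p14) by Entrez ID. The values were used as deposited.

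Group means were fitted to 19775 genes over all 17 arrays with limma 3.58.1 (lmFit and eBayes) in R 4.3.3. P-values were adjusted by the Benjamini-Hochberg method over all genes in each comparison, with a threshold of 0.05. The median 95% interval extended 0.54 log2 to either side between groups of 3 and 0.60 with the group of 2. Data were simulated on 19775 genes with independent normal noise of each gene's own spread. For the average over both doses, the fit recovered 60% of changes of 1 log2 and 94% of changes of 2. At 1 nM it recovered 37% and 83%, and at 10 nM 30% and 78%. The simulation held no narrow arrays and no shared deviation of same-numbered arrays, so recovery in the real arrays may differ.

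The members and gene lists were chosen with earlier results of these data known. Of the other actin genes, those past the threshold in the average were named, with the nearest that missed it. For likeness, the 5 genes with the highest r and the 3 with the lowest were named. The labels give the groups the same replicate numbers. Same-numbered arrays deviated together between 1 nM rapamycin and its combination (correlation 0.35 to 0.73), but not between 10 nM rapamycin and its combination (-0.63 and 0.10). They also did between control and MS275 (0.40 to 0.50), and between the 1 nM combination and control (0.57 to 0.82) or MS275 (0.49 to 0.75). Pairs with the 10 nM combination ran from -0.74 to 0.39, and 10 nM rapamycin with MS275 from -0.34 to 0.61. The main fit leaves the replicate number out, and the block is given as an alternative.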

Additional observations from a re-analysis of the deposited data

Results flagged for a closer look

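SCIN differed in sign with MS275 between the 2 rapamycin doses, with no overlap at either. Its arrays read 4.69, 4.65 and 4.57 with 1 nM rapamycin and 5.12, 4.83 and 5.26 in the 1 nM combination, all higher, a difference of 0.43. They read 4.82, 4.80 and 4.86 with 10 nM rapamycin and 4.75 and 4.70 in the 10 nM combination, all lower, a difference of -0.10. The gap between the effects was 0.54 in size, and it did not pass when it was tested itself (limma, adjusted p = 0.998). Across all genes, 14.9% were higher without overlap at 1 nM and 11.1% lower without overlap at 10 nM. The higher group at 1 nM holds a narrow array, replicate 1, which read 5.12, and without it the difference at 1 nM was 0.41. This SCIN probe set carries the _x_at suffix, and its arrays lay within the span of means of the markers of other cell types, 2.72 to 6.92. The other 3 SCIN probe sets read between 1.90 and 3.43, with changes of -0.09 to 0.22 at 1 nM and -0.11 to 0.12 at 10 nM. Whether any SCIN probe set is above background was not analysed here.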

How the results depend on the processing

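The alternatives were a fit of the compared groups alone, leaving out the 2 narrow arrays, the replicate block, quantile normalization again, scaling by median and median absolute deviation, a filter on genes above the median level, array weights, limma's trend and robust options, the mean of a gene's probe sets, and leaving out each array. GSN kept its direction under all of these. The mean of all 7 probe sets took its call away, at 0.34 (adjusted p = 0.425) at 1 nM, 0.28 (1.00) at 10 nM and 0.31 (0.26) in the average, so that 0 members were called. The other GSN probe sets gave averaged changes of 0.12, 0.22, -0.0053, 0.034, -0.13 and 0.15. At 10 nM the fit of the 2 groups alone gave 1.66 (0.125) and 0 members called. Without 1 array in turn, the change at 10 nM ran from 1.40 to 1.92, with 0 to 1 members called. Leaving out arrays of the 10 nM combination leaves 1 array there. With the replicate block, 2 members were called at 10 nM and 2 in the average, the second being CFL2 (1.81, adjusted p = 0.032, and 1.41, adjusted p = 0.00431), and the block changed no other member's call. With array weights, 3 members were called in the average, against 9.24% of all genes, with CAPG (0.66, adjusted p = 0.0318) and CFL2 (1.63, 0.0124), and 2 and 1 of 9 members against control at 1 and 10 nM rapamycin, against 14.2% and 9.87%. Of the other actin genes, FMNL1 was 0.90 (0.0617) with the mean of its probe sets, and array weights called ACTA2 (0.79, 0.0233) and CORO1B (-0.57, 0.0233). The number of genes called among all moved by over 1.5 times: 243 at 1 nM (39 to 922 under the alternatives), 86 at 10 nM (0 to 338), 787 in the average (465 to 1828), and, for rapamycin against control, 20 at 1 nM (0 to 2804) and 86 at 10 nM (0 to 1951). All p-values are limma's. Few arrays and the lack of detection calls limit what the low probe sets can show.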
